A study of Danio rerio with 9 samples.

Results

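Cytosolic ribosomal protein genes encode the proteins of the small and the large ribosomal subunit, which bind ribosomal RNA and together form the machine that translates every nuclear-encoded message of the cell. Their mRNAs are among the most abundant of any growing cell. Most of the proteins are needed in equal numbers, so their genes are usually transcribed at similar levels. In zebrafish several of the genes exist as a pair of related copies. In the gastrula, where cells divide and take up dorsal or ventral fates under a gradient of Bone Morphogenetic Protein (BMP), new ribosomes are made by the embryo on top of those supplied by the egg.

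The genes were chosen by name alone. Rows of the deposited tables whose gene name begins with rpl, rps or rplp and a digit were taken, the rps6k kinases were left out (11 of 93 matching rows), and at least 15 counts over 9 libraries were required, which left 82 genes of 41977 rows in all, of which 28260 had a count in some library. Of the 82 genes, 48 were named as large subunit genes and 33 as small subunit genes. The remaining row, *rps19bp1*, encodes a nucleolar protein that binds a ribosomal protein and is not itself part of the ribosome. All 82 passed the low-count filter in each of the 3 comparisons.

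RNA-sequencing had been carried out on wild type zebrafish embryos of the TE strain at shield stage, the onset of gastrulation (6.75 h post-fertilization, hpf). 3 libraries came from *bmp*-overexpressing embryos injected with 10 pg *bmp2b* mRNA, 3 from *chordin*-overexpressing embryos injected with 100 pg mRNA of *chordin* (*chd*), which encodes a secreted BMP inhibitor, and 3 from uninjected siblings. Each library was a pool of 10 whole embryos, so a change in the number of cells of a type and a change in RNA per cell cannot be told apart, and embryos given a control mRNA are not among these samples, so an effect of BMP or Chordin and an effect of injection cannot be told apart against uninjected embryos. The labels do not say whether the libraries of a group came from separate clutches, and p-values measure only the spread between these pools, which may be technical.

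Depth lay between 8861308 and 22372856 counts per library. The injected messages matched the labels: *bmp2b* lay between 709.8 and 909 CPM (counts scaled to library size) in *bmp*-overexpressing embryos against 98.7 to 117 CPM in uninjected embryos, and *chd* between 1654 and 2255 CPM in *chordin*-overexpressing embryos against 193 to 217 CPM in uninjected embryos. All 8 ventral marker genes listed were lower in *chordin*-overexpressing embryos and in *bmp*-overexpressing embryos 6 of the 8 were higher and *vent* was lower, each against uninjected embryos (limma, adjusted p under 0.05). The 6 (*eve1*, *foxi1*, *gata2a*, *szl*, *tfap2c* and *ved*) are among the BMP target genes that the study chose from these same libraries. They were chosen for rising with *bmp* and falling with *chordin*, so their direction is no independent check of the labels. *vent*, a transcriptional repressor gene of ventral cells, had 22.4, 20.5 and 16.1 CPM in *bmp*-overexpressing embryos, against 35.8, 40.6 and 37.8 CPM in uninjected embryos. Of 7 organizer and dorsal markers, 5 were lower and 0 higher with *bmp*, where 1.43% of all rows were lower. With *chordin* 5 were higher and 0 lower, where 0.591% of all rows were higher, and the injected *chd* was among the 5. Blood and muscle markers that a gastrula should lack, of which 3 had a row, summed to at most 4.62 CPM in any library. CPM values here are scaled by TMM factors, which assume that most genes do not change.

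Ribosomal protein mRNAs were abundant and even. Uninjected embryos held a median of 561 CPM per gene (lowest 1.61, highest 1849), and the median gene stood above 98.9% of the 25113 rows with a count in uninjected embryos. Per kilobase of transcript, the authors' pooled FPKM in uninjected embryos had a median of 1934 over the 82 genes, and 63 of the 82 lay within 2-fold of it. Large subunit genes had a median of 1741 FPKM and small subunit genes 2126 FPKM, with no replicate values behind these pooled levels.

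The highest levels per kilobase belonged to *rpl38* (6368 FPKM in uninjected embryos), which in the mouse is needed for the translation of Hox messages and for skeletal patterning, followed by *rps12* (4760.2), *rpl29* (4567), *rpl23* (4560.4) and *rps20* (4356). The lowest belonged to *rps8b* (4.68 FPKM), *rps19bp1* (67.7), *rpl22l1* (182), *rpl7l1* (194) and *rpl5a* (367). 4 of these 5 are the lower gene of a like-named pair, and the other is *rps19bp1*. None of the 5 genes highest in FPKM was among the 5 highest in CPM, which are not divided by length and were led by *rpl12*, *rps2* and *rpl3*, so levels are compared between genes only as FPKM.

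The summed share of library counts taken by the 82 genes was 5.72%, 5.26% and 5.67% in the 3 *bmp*-overexpressing libraries, 5.41%, 5.31% and 5.33% in the 3 *chordin*-overexpressing libraries, and 5.37%, 4.65% and 5.03% in the 3 uninjected libraries. Means were 5.55% ± 0.25 with *bmp*, 5.35% ± 0.06 with *chordin* and 5.02% ± 0.36 in uninjected embryos (SD, n = 3 each). The *bmp* and uninjected libraries overlapped, since *bmp* replicate 2 lay below uninjected replicate 1, and so did the *chordin* and uninjected libraries.

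**Figure D1:**
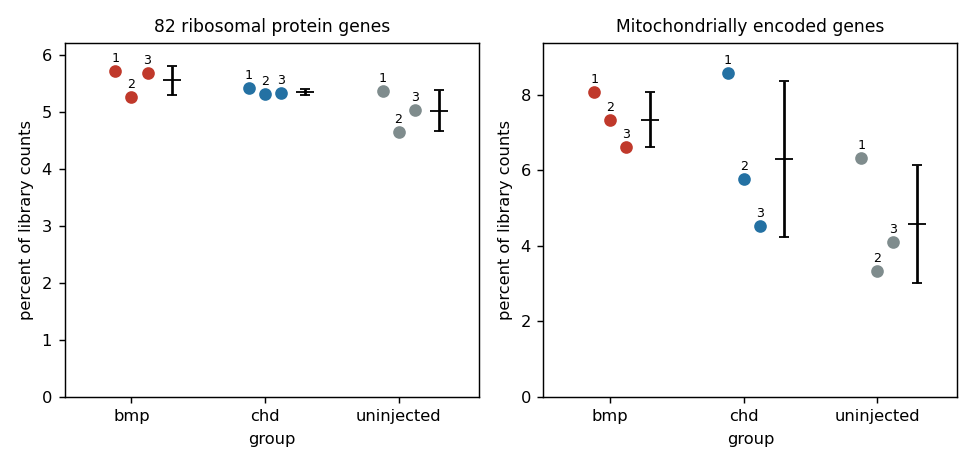
Percent of each library's counts (vertical axes, from 0) in the 82 ribosomal protein genes (left) and in mitochondrially encoded genes (right), by group. Points are libraries with their replicate number, and bars are the mean ± SD of 3 libraries. Uninjected replicate 2 is lowest in both panels, at 4.65% and 3.33%.

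The genes moved together from library to library, and the widest steps were within the uninjected group. Relative to each gene's mean over 9 libraries, the median gene stood at 0.13, -0.02 and 0.11 (log2) in the *bmp*-overexpressing libraries, at 0.10, 0.03 and 0.01 in the *chordin*-overexpressing libraries, and at 0.02, -0.25 and -0.10 in the uninjected libraries. Uninjected replicate 2, the deepest library, was the lowest of the 9 libraries for 70 of the 82 genes. Between uninjected replicates 2 and 1 the median gene differed by -0.28 (log2). The highest of the 9 libraries was a *bmp* library for 54 genes, a *chordin* library for 25 and an uninjected library for 3. Over the other rows with a mean above 1 CPM, the median stood between 0.017 and 0.035 in every library. It was 0.035 in uninjected replicate 2.

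**Figure D2:**
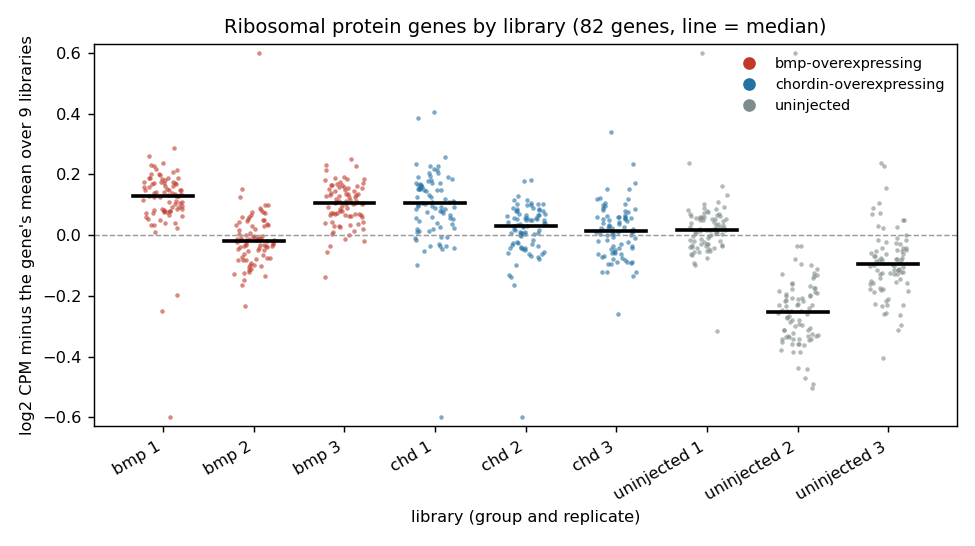
Each point is 1 of the 82 genes in 1 library: log2 CPM minus the gene's mean log2 CPM over 9 libraries (vertical axis), by library (horizontal axis), with black lines for medians; points beyond the axis, all of the barely expressed *rps8b*, are drawn at its edge. The median is lowest in uninjected replicate 2 and next lowest in uninjected replicate 3 (-0.25 and -0.10).

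Some other measures were also lowest in that library. Mitochondrially encoded genes took 8.06%, 7.34% and 6.61% of counts in the *bmp* libraries, 8.57%, 5.77% and 4.53% in the *chordin* libraries and 6.31%, 3.33% and 4.09% in the uninjected libraries, again lowest in uninjected replicate 2. The 6 enveloping layer markers, keratins and a claudin of the outer epithelium, summed to 7739 to 8314 CPM with *bmp*, 8723 to 9661 CPM with *chordin* and 7227 to 10656 CPM in uninjected embryos, where replicate 2 was lowest and replicate 1 highest. Primordial germ cell markers (252 to 293, 279 to 301 and 249.8 to 311 CPM, in the same order of groups) and maternal oocyte markers (183 to 217, 185 to 192 and 200.5 to 213 CPM) overlapped between *bmp*-overexpressing and uninjected embryos. In maternal oocyte markers every *chordin* library lay below every uninjected library, and uninjected replicate 2 (204 CPM) lay between uninjected replicates 1 and 3. The part of any of these in the levels of the ribosomal protein genes was not tested. Single genes were steady across all 9 libraries: the median coefficient of variation was 9.57% and 78 of the 82 were under 15%.

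In *bmp*-overexpressing against uninjected embryos, 11 of the 82 ribosomal protein genes rose and none fell, at an adjusted p under 0.05 (limma on voom weights, Benjamini-Hochberg adjusted over 16779 rows). Over all rows tested 1.72% rose, 1.43% fell and 3.15% changed in either direction. The rises were small, between 1.21-fold and 1.304-fold. They were 4 of 48 large and 7 of 33 small subunit genes, among them *rpl24*, *rpl26*, *rpl29* and *rpl38* of the large subunit and *rps3*, *rps8a*, *rps14*, *rps25*, *rps26l* and *rps28* of the small subunit.

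The median log2 fold change of the 82 genes was 0.20 (1.15-fold), against 0.01 over all rows tested, with 0.20 for large and 0.24 for small subunit genes. It was above 0 for 79 of the 82, where 51.1% of all rows were above 0. At an unadjusted p under 0.05, 62 genes were higher and 0 lower, where 6.84% of all rows were higher and 6.04% lower. In 22 of the 82 every *bmp* library lay above every uninjected library, where 8.96% of all rows did, and in 0 did every one lie below, where 9.02% of all rows did. These counts are not 82 separate observations, because the genes share the same 6 libraries and moved together within groups as well.

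The ribosomal protein genes had small standard errors. The median standard error of a ribosomal protein gene's log2 fold change was 0.08 in this comparison, against 0.33 over all rows tested. These genes are more abundant than most rows, and rows of like abundance were not compared. A given fold change is more easily called in them than in most rows, so the shares called over all rows are an unlike background.

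**Figure D3:**
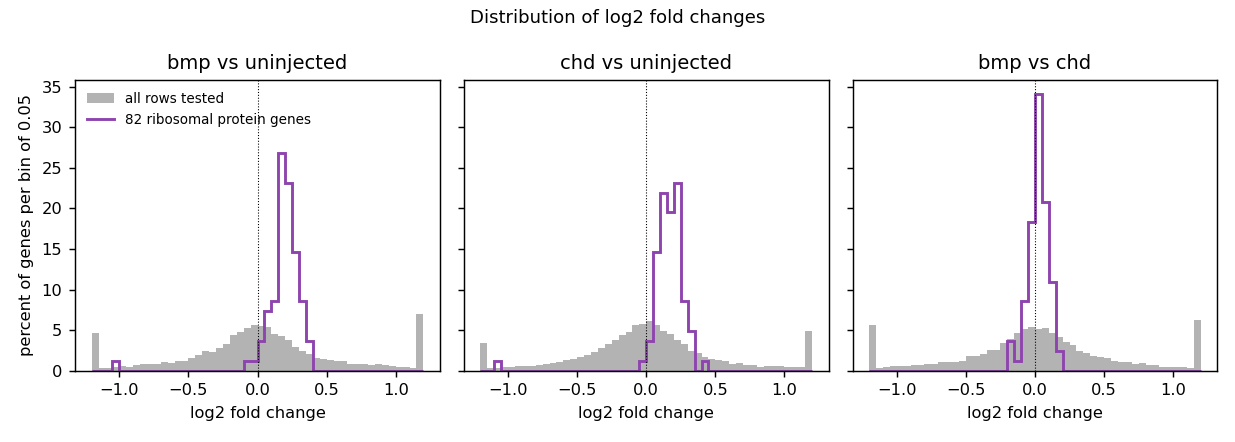
Percent of genes (vertical axis) per bin of 0.05 in log2 fold change (horizontal axis) for the 82 ribosomal protein genes (line) and all rows tested (grey), in *bmp* against uninjected (left), *chordin* against uninjected (middle) and *bmp* against *chordin* embryos (right); values beyond the axis are in the outermost bins. The line is centred at 0.20, 0.16 and 0.03, and the grey bars near 0.

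The firmest rise was that of *rps14* (chr21:33418647-33422939, GRCz10), which encodes a small subunit protein whose loss in human bone marrow impairs red cell formation. It had 1325, 1233 and 1260.2 CPM in *bmp*-overexpressing embryos, against 1167, 979 and 980.2 CPM in uninjected embryos. The groups did not overlap, and the log2 fold change was 0.31 ± 0.07 (SE), with adjusted p = 0.00401 by limma. With each of the 6 libraries left out in turn it stayed called in 5 fits, and it was lost without *bmp* replicate 1.

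*rpl26* (chr14:51848165-51852679), whose product in human cells also binds the p53 message, had the largest fold of the called genes. Its level was 874, 791 and 783 CPM in *bmp*-overexpressing embryos, against 776, 580.0 and 562 CPM in uninjected embryos. The lowest *bmp* library exceeded the highest uninjected library by a narrow margin, and the fold change was 0.38 ± 0.09 (log2 ± SE, adjusted p = 0.00637 by limma).

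*rpl24* (chr1:6641-11878) encodes a protein that bridges the subunits, and its mouse mutant is known for a white belly spot and a kinked tail. It had 1419, 1278 and 1318 CPM in *bmp*-overexpressing embryos, against 1267, 974 and 1066 CPM in uninjected embryos. All *bmp* libraries were above all uninjected ones, and the log2 fold change was 0.31 ± 0.07 (SE, adjusted p = 0.00839 by limma). *rpl24* and *rpl26* each stayed called in 4 of the 6 fits with a library left out.

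*rpl38* (chr12:38382069-38386875), the gene with the highest FPKM, had 887, 729 and 830.1 CPM in *bmp*-overexpressing embryos, against 781, 559 and 644 CPM in uninjected embryos. *bmp* replicate 2 lay below uninjected replicate 1, so the groups overlapped. The log2 fold change was 0.34 ± 0.09 (SE) with adjusted p = 0.0283 by limma, and the call held in 2 of 6 fits with a library left out. *rpl29* (chr11:1369711-1374076), encoding a large subunit protein without which mice live but stay small, had 889, 736 and 858 CPM against 782, 543 and 631 CPM in uninjected embryos. It overlapped in the same way and rose by 0.38 ± 0.09 (log2 ± SE, adjusted p = 0.0122 by limma), a call that held in 3 of the 6 fits with a library left out.

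Among the small subunit genes, *rps3* (chr18:3045141-3056768) encodes a protein at the mRNA entry channel that also takes part in DNA repair in mammals. It had 1047, 963 and 1004 CPM in *bmp*-overexpressing embryos, against 873, 752 and 864 CPM in uninjected embryos, without overlap, and a log2 fold change of 0.30 ± 0.07 (SE, adjusted p = 0.00772 by limma). *rps28* (chr2:24851942-24854047) had 1024, 922 and 988 CPM, against 889, 720.1 and 791 CPM in uninjected embryos, also without overlap (0.31 ± 0.07, log2 ± SE, adjusted p = 0.00829 by limma). Both stayed called in 3 of the 6 fits with a library left out.

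*rps26l* (chr6:49522051-49527414) belongs to a family whose human member is mutated in Diamond-Blackfan anaemia, a failure of red cell production. It had 431, 436 and 439 CPM in *bmp*-overexpressing embryos, against 395, 318 and 334 CPM in uninjected embryos. The groups were apart, with uninjected replicate 1 nearest to the *bmp* libraries, and the log2 fold change was 0.34 ± 0.09 (SE, adjusted p = 0.0200 by limma). The *rps26l* call held only without uninjected replicate 1 among the 6 fits with a library left out. It was also lost with total counts (adjusted p = 0.0540 by limma).

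In 2 more of the called genes, *rps25* and *rps8a*, the groups overlapped. *rps25* (chr10:39182356-39187558), whose product human cells and yeast need for translation from viral internal entry sites, had 1027, 944 and 1023 CPM in *bmp*-overexpressing embryos, against 947, 673 and 819.9 CPM in uninjected embryos (0.34 ± 0.08, log2 ± SE, adjusted p = 0.0145 by limma). *rps8a* (chr2:26842896-26846010) had 1099.6, 989 and 1121 CPM, against 1009, 794 and 902 CPM in uninjected embryos (0.27 ± 0.08, adjusted p = 0.0343 by limma). With a library left out, the call of *rps25* held in 3 of 6 fits and that of *rps8a* in 2, and that of *rps8a* was also lost with total counts (adjusted p = 0.0827 by limma). None of the 11 called genes overlaps another row of the tables.

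**Figure D4:**
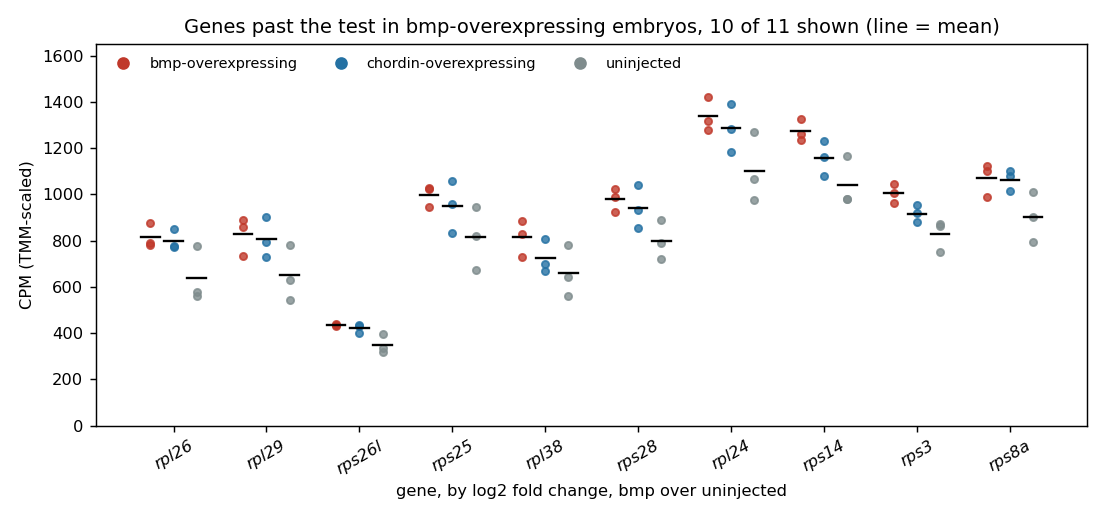
CPM (vertical axis, from 0) of 10 of the 11 genes called in *bmp*-overexpressing against uninjected embryos, ordered by log2 fold change; points are libraries and black lines means of 3 libraries. In each gene the *bmp* mean is highest and the uninjected mean lowest, and in *rpl29*, *rpl38*, *rps25* and *rps8a* the *bmp* and uninjected points overlap.

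The count of called genes rested on single libraries and on the fit. With limma-trend, which lets the expected spread follow a gene's mean level in place of weighting each count, 5 of the 11 stayed called. *rpl24*, *rpl38*, *rps3*, *rps8a*, *rps25* and *rps26l* did not (adjusted p between 0.0528 and 0.130 by limma-trend). With voom weights the count was 0 without *bmp* replicate 1, 4 without *bmp* replicate 3, 2 without uninjected replicate 2, 6 without uninjected replicate 3 and 42 without uninjected replicate 1, and without uninjected replicate 2 the median fold change of the 82 genes was 0.11 (log2). When each library was scaled to its summed ribosomal protein counts, an alternative added after the data were seen that sets the common shift of these genes to about 0 by construction, 0 genes were called and 0 had an unadjusted p under 0.05, the median of all rows stood at -0.19, and 24.1% of calls over all rows were rises in place of 54.5%.

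In the main fit of this comparison 71 of the 82 genes did not pass the test. The genes of the ribosomal stalk, whose proteins recruit the translation factors that hydrolyse GTP, were among them. *rplp0* had 1036, 989 and 1104 CPM in *bmp*-overexpressing embryos, against 1059.6, 935 and 992 CPM in uninjected embryos (log2 fold change 0.08 ± 0.07, SE). *rplp1* had 670.4, 565 and 646 CPM, against 695, 517 and 665 CPM in uninjected embryos (0.04 ± 0.09), and *rplp2* had 191, 155 and 175 CPM, against 214, 128 and 214 CPM (-0.01 ± 0.14). In these 3 genes the groups overlapped. The fourth stalk gene, *rplp2l*, stood at 0.19 ± 0.09 (adjusted p = 0.346 by limma).

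The span of *rplp0* in the tables is 1078436 bases long and overlaps 23 other rows, among them *hspa5*, whose summed counts equal 61.6% of its own, and the library kit kept no strand, so its count may hold reads of neighbours. *rpl27a* and *rpl28* likewise share their spans with other rows, whose own summed counts equal 18.98% of the count of *rpl27a* and 39.5% of that of *rpl28*.

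Other low values in this comparison were *rpl7l1* at -0.08 ± 0.11, *rps19bp1* at 0.01 ± 0.14, *rpl19* at 0.04 ± 0.08 and *rps9* at 0.06 ± 0.08 (log2 ± SE). *rpl19* and *rps9*, which are no stalk genes, lay below *rplp0*. Too few reads of *rps8b* were counted for a comparison. *rps8b* had 3, 26 and 13 counts in *bmp*-overexpressing embryos, 7, 4 and 20 counts in *chordin*-overexpressing embryos and 30, 43 and 14 counts in uninjected embryos. Its log2 fold change of -1.03 had a standard error of 0.99.

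Further members with known roles outside bulk translation or in assembly did not pass the test. *rpl11*, *rpl5a* and *rpl5b*, whose mammalian products bind Mdm2 and so stabilise p53 when ribosome assembly fails, had log2 fold changes of 0.20 ± 0.08, 0.27 ± 0.10 and 0.17 ± 0.06 (SE, adjusted p between 0.197 and 0.208 by limma). *rps19*, mutated in human Diamond-Blackfan anaemia, stood at 0.28 ± 0.09 (adjusted p = 0.108) and *rps27a*, which encodes ubiquitin fused to a ribosomal protein, at 0.17 ± 0.08 (adjusted p = 0.359). *rps6*, the phosphorylation target of the ribosomal protein kinases, had 709.6, 632 and 654 CPM in *bmp*-overexpressing embryos, against 599, 575 and 623 CPM in uninjected embryos, apart by a narrow margin (0.16 ± 0.07, adjusted p = 0.323). *rpl10*, which encodes a protein that joins the large subunit last, stood at 0.07 ± 0.07, below the family median of 0.20. Of the 10 p53 response genes listed, 9 had a row and 0 were called by limma in any comparison, and 0 by limma-trend. At an unadjusted p under 0.05 by limma, 1 was lower in each comparison with uninjected embryos. Of all rows, 6.04% were lower with *bmp* and 4.17% with *chordin*. In *bmp*-overexpressing against *chordin*-overexpressing embryos 3 p53 response genes were lower, where 7.31% of all rows were.

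In *chordin*-overexpressing against uninjected embryos, most fold changes were again small and above 0, but no ribosomal protein gene passed the test. Of the 82, 0 were called by limma on voom weights and 0 by limma-trend, where 0.892% of all 16590 rows tested were called and 0.591% rose. At an unadjusted p under 0.05, 40 were higher and 0 lower with voom weights (5.26% of all rows were higher and 4.17% lower) and 26 with limma-trend. The median log2 fold change was 0.16 (1.12-fold), against 0.004 over all rows, and 80 of the 82 were above 0, as were 50.5% of all rows. In 21 of the 82 the *chordin* libraries all lay above the uninjected libraries, where 7.25% of all rows did, and in 0 did they all lie below, where 7.27% did. The uninjected libraries are the same as in the comparison with *bmp*, so the 2 comparisons are not independent.

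Nearest to a call was *rps15* (chr11:5929594-5934360), whose yeast counterpart is needed for export of small subunit precursors from the nucleus. It had 555, 544 and 581 CPM in *chordin*-overexpressing embryos, against 497, 409 and 455 CPM in uninjected embryos, without overlap, and a log2 fold change of 0.33 ± 0.08 (SE, adjusted p = 0.0511 by limma). It was the 1 gene called with RLE factors. *rpl26* (0.35 ± 0.09, adjusted p = 0.0646) and *rps12* (0.30 ± 0.08, adjusted p = 0.0808 by limma) followed.

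The largest fold belonged to *rpl22l1*, the relative of *rpl22*, which in the mouse is repressed by the Rpl22 protein. It had 122, 99.6 and 95.1 CPM in *chordin*-overexpressing embryos, against 89.3, 65.5 and 83.3 CPM in uninjected embryos, where the groups were apart, with a log2 fold change of 0.44 ± 0.14 (SE, adjusted p = 0.204 by limma). *rpl22* itself stood at 0.26 ± 0.10 (adjusted p = 0.384). *rpl29* had a log2 fold change of 0.33 ± 0.10 (adjusted p = 0.124).

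At the low end, *rpl12*, which sits at the base of the stalk and was the gene with the most counts, had 1881, 1808 and 1808 CPM in *chordin*-overexpressing embryos, against 1920.1, 1843 and 1782 CPM in uninjected embryos, a difference of -0.01 ± 0.05 (log2 ± SE). *rps9* and *rpl19* stood at 0.01 ± 0.08 each and *rpl3*, which lies at the peptidyl transferase centre, at 0.05 ± 0.06, while *rps8b*, again with few counts, stood at -1.07 ± 0.99. Except for *rps8b*, each of these values was smaller than its standard error. Without uninjected replicate 1, 23 genes were called, and without uninjected replicate 2 the median of the 82 was 0.09 (log2). The count was 6 without the low-count filter, 4 with all 3 groups in the fit and 2 without mitochondrially encoded genes. Each time these genes were higher. Of all rows, 1.96% were called without uninjected replicate 1, 0.683% without the filter, 1.09% with all 3 groups and 0.974% without mitochondrially encoded genes.

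Between *bmp*-overexpressing and *chordin*-overexpressing embryos, the comparison in which both groups were injected, ribosomal protein genes did not pass the test. 0 of the 82 were called by limma on voom weights and 0 by limma-trend, where 5.04% of all 16735 rows tested were called and 2.19% were higher. At an unadjusted p under 0.05, 6 were higher and 0 lower with voom weights, where 7.10% of all rows were higher and 7.31% lower, and 3 were higher with limma-trend. The median log2 fold change was 0.03, against 0.01 over all rows, and the members ranged only between -0.18 and 0.18. In 5 of the 82 the *bmp* libraries all lay above the *chordin* libraries, where 9.44% of all rows did, and in 0 did they all lie below, where 9.84% did.

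The highest of these values was that of *rpl38*, with 887, 729 and 830.1 CPM in *bmp*-overexpressing embryos, against 809, 698 and 669 CPM in *chordin*-overexpressing embryos. The groups overlapped, and the log2 fold change was 0.18 ± 0.07 (SE, adjusted p = 0.210 by limma). *rps14* had 1325, 1233 and 1260.2 CPM against 1231, 1160.2 and 1078 CPM with *chordin*, apart by a narrow margin (0.15 ± 0.05, adjusted p = 0.0980). Without *chordin* replicate 1, *rpl38* and *rps14* were called, and without *bmp* replicate 2 *rpl38* alone. Of all rows, 4.96% and 4.26% were called in these fits.

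*rpl12* was the gene measured most precisely here. It had 2076, 1935 and 1967 CPM in *bmp*-overexpressing embryos, against 1881, 1808 and 1808 CPM in *chordin*-overexpressing embryos, without overlap (0.12 ± 0.04, log2 ± SE, adjusted p = 0.0720 by limma). *rps3*, *rpl3* and *rpl5b*, at 0.12 ± 0.05, 0.10 ± 0.04 and 0.10 ± 0.05, were the others without overlap. *rps10* stood at 0.12 ± 0.08.

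26 of the 82 lay below 0, and the 5 lowest were *rps19bp1* at -0.18 ± 0.12, *rpl7l1* at -0.17 ± 0.10, *rpl22l1* at -0.15 ± 0.12, *rplp2* at -0.12 ± 0.12 and *rpl27* at -0.09 ± 0.08 (log2 ± SE, adjusted p between 0.506 and 0.729 by limma). *rps19bp1* had 81.7, 96.7 and 102 CPM in *bmp*-overexpressing embryos, against 114, 101 and 103 CPM in *chordin*-overexpressing embryos, and the groups overlapped.

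Where the family holds a pair of like-named genes, the shares within the pair overlapped between conditions in all pairs but 1. 7 pairs were compared as the share of the pair's counts taken by 1 gene. *rps8b* took between 0.020% and 0.232% of the counts of *rps8a* and *rps8b* in any library, and in uninjected embryos *rps8a* had 492 times its FPKM. Reads shared between near-identical copies may have been split or dropped by the counting, which makes shares this small uncertain.

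*rpl5a* took 19.6%, 18.9% and 20.6% of its pair with *rpl5b* in *bmp*-overexpressing embryos, 20.3%, 21.1% and 19.5% in *chordin*-overexpressing embryos and 18.9%, 16.97% and 20.6% in uninjected embryos, so the groups overlapped, and *rpl5b* had 4.18 times its FPKM. Over all 9 libraries *rpl22l1* took 24.1% to 30.6% of its pair with *rpl22*, *rpl7l1* took 25.02% to 31.6% with *rpl7*, and *rplp2* took 22.05% to 29.5% with *rplp2l*. The remaining pairs were close to even: *rps27.1* took 47.4% to 53.6% with *rps27.2*, and *rps26l* took 52.5% to 58.2% with *rps26*.

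Groups were apart only for *rps27.1*, which took 50.2%, 50.3% and 50.7% of its pair in *bmp*-overexpressing embryos, 51.3%, 47.4% and 51.3% in *chordin*-overexpressing embryos and 53.02%, 52.03% and 53.6% in uninjected embryos. Of 21 two-sided exact permutation tests over the 7 pairs and 3 comparisons, these 2 against uninjected embryos gave p = 0.1, the smallest that 3 against 3 libraries allow, and every adjusted p was 0.7 or above. A change of balance could not have passed the threshold in this design.

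**Figure D5:**
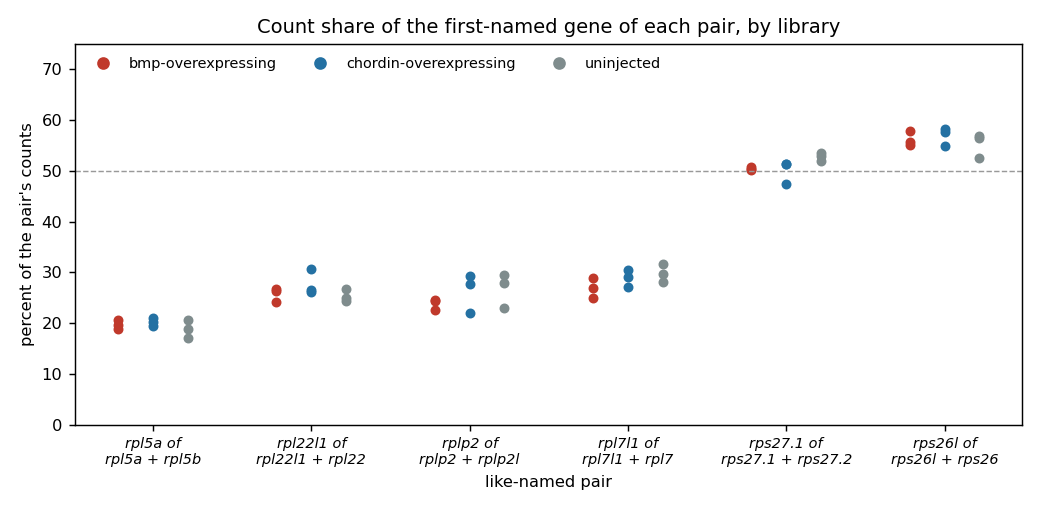
Percent of a pair's summed counts taken by its first-named gene (vertical axis, from 0) for 6 pairs (horizontal axis), with 1 point per library coloured by group and a dashed line at an even share; the *rps8a* and *rps8b* pair, under 0.24%, is left out. *rps27.1* in *bmp* and *chordin* libraries (47.4% to 51.3%) lies below the uninjected libraries (52.03% to 53.6%), and in the other pairs the groups overlap.

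The ribosomal protein genes whose names fall outside the pattern gave values of the same size. 5 of 7 names had a row, and in *bmp*-overexpressing against uninjected embryos 2 of the 5 rose and 0 fell, with a median of 0.25 (log2). Of all rows tested 1.72% rose and 1.43% fell in this comparison. The count of the 5 that rose was 0 without *bmp* replicate 1, *bmp* replicate 3 or uninjected replicate 2, 1 without *bmp* replicate 2 or uninjected replicate 3, 3 without uninjected replicate 1 and 0 with limma-trend. *faua*, whose product is a small subunit protein fused to a ubiquitin-like one, had 272, 236 and 245 CPM in *bmp*-overexpressing embryos, against 227, 189 and 175 CPM in uninjected embryos, without overlap (0.36 ± 0.11, log2 ± SE, adjusted p = 0.0486 by limma). *faua* was called only without uninjected replicate 1 among the 6 fits with a library left out, and not with limma-trend (adjusted p = 0.0731). In the 2 comparisons with *chordin*, 0 of the 5 were called by limma on voom weights and 0 by limma-trend. At an unadjusted p under 0.05 by limma, 2 were higher in *chordin*-overexpressing against uninjected embryos, where 5.26% of all rows were. In *bmp*-overexpressing against *chordin*-overexpressing embryos 0 were higher, where 7.1% of all rows were.

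Genes for ribosome assembly are those of the nucleolar factors and RNA polymerase I subunits that make ribosomal RNA and build subunits around it. Their median fold change was below 0 in *bmp*-overexpressing embryos, against uninjected and against *chordin*-overexpressing embryos. All 66 listed were tested. Against uninjected embryos 0 rose and 3 fell, with a median of -0.10 (log2), where 1.72% of all rows rose and 1.43% fell. However, 1 fell without *bmp* replicate 1 or 3, and 1 rose and 9 fell without uninjected replicate 1. With limma-trend 0 rose and 2 fell. In *chordin*-overexpressing against uninjected embryos 1 rose and 0 fell, with a median of 0.07, where 0.591% of all rows rose and 0.301% fell. In *bmp*-overexpressing against *chordin*-overexpressing embryos 10 were lower and 0 higher, with a median of -0.18, where 2.85% of all rows were lower and 2.19% higher. With limma-trend 7 were lower and 0 higher in that comparison. Leaving out each library in turn gave between 5 and 8 lower and 0 higher in that comparison. The count was 5 without *bmp* replicate 1 and 5 without *bmp* replicate 2.

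The 10 were *fbl*, *gnl3*, *mybbp1a*, *ncl*, *nip7*, *noc4l*, *nol6*, *nop2*, *npm1a* and *wdr43*. Of these, *ncl* and *wdr43* were also called lower with *bmp* against uninjected embryos, and the others were not. *fbl*, the fibrillarin that methylates ribosomal RNA, had 654, 603 and 682 CPM in *bmp*-overexpressing embryos, against 793, 794 and 768 CPM in *chordin*-overexpressing embryos, with no overlap (-0.28 ± 0.06, log2 ± SE, adjusted p = 0.00309 by limma). *nol6*, a nucleolar factor of small subunit assembly, had 48.1, 44.6 and 43.1 CPM, against 79.7, 64.7 and 69.5 CPM with *chordin*. These groups were again without overlap (-0.65 ± 0.15, adjusted p = 0.00377 by limma). In uninjected embryos *fbl* had 706, 776 and 765 CPM, and *nol6* had 47.6, 52.3 and 65.8 CPM, overlapping its *bmp* libraries. *wdr43*, a factor of the small subunit processome, had 133, 133 and 139.97 CPM in *bmp*-overexpressing embryos, 191, 168 and 202 CPM in *chordin*-overexpressing embryos and 166, 228 and 205 CPM in uninjected embryos, and was lower with *bmp* in both comparisons (adjusted p = 0.00223 against *chordin* and 0.00248 against uninjected embryos by limma). *fbl*, *nol6* and *wdr43* kept these calls with any single library left out, while the calls of *gnl3* and *mybbp1a* held in 1 of 6 such fits, those of *nop2* in 2, *ncl* and *nip7* in 3, *npm1a* in 4 and *noc4l* in 5. With limma-trend, *gnl3*, *npm1a* and *ncl* were not called against *chordin* (adjusted p = 0.0730, 0.118 and 0.147). Against uninjected embryos limma-trend did not call *ncl* (adjusted p = 0.0549).

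*nop2*, an RNA methyltransferase of the nucleolus, was the assembly gene that rose with *chordin*. It had 217, 195 and 164 CPM in *chordin*-overexpressing embryos, against 133, 124 and 135 CPM in uninjected embryos, without overlap (0.54 ± 0.12, log2 ± SE, adjusted p = 0.0134 by limma). The call was lost without *chordin* replicate 1 or 2 or uninjected replicate 2 or 3. In *bmp*-overexpressing embryos *nop2* had 133, 140 and 156 CPM, which overlapped the uninjected libraries.

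Of 52 translation factor genes listed, 50 had a row and 47 were tested in each comparison, with medians near 0 (0.01, 0.06 and -0.04 on the log2 scale). Against uninjected embryos 1 rose and 1 fell with *bmp*, and 2 rose and 0 fell with *chordin*. Between *bmp*-overexpressing and *chordin*-overexpressing embryos 1 was higher and 3 were lower. Of all rows tested, 3.15%, 0.892% and 5.04% changed in either direction in these comparisons. *eif4g1a*, the scaffold of the cap-binding complex, had 280.4, 318 and 299 CPM in *bmp*-overexpressing embryos, 466, 486 and 493 CPM in *chordin*-overexpressing embryos and 387, 350.1 and 405 CPM in uninjected embryos. The 3 groups did not overlap. It fell with *bmp* (-0.32 ± 0.09, adjusted p = 0.0369), rose with *chordin* (0.36 ± 0.08, adjusted p = 0.0292) and was lower in *bmp*-overexpressing than in *chordin*-overexpressing embryos (-0.68 ± 0.08, log2 ± SE, adjusted p = 7.15e-08 by limma). The last call held with any single library left out, and each of the others in 2 of 6 such fits. Limma-trend did not call the rise of *eif4g1a* with *chordin* (adjusted p = 0.0841) but kept its other calls.

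The other translation factors called were *pabpc1a*, the poly(A)-binding protein gene, higher with *bmp* than in uninjected embryos (0.21 ± 0.05), *eif4ea* of the cap-binding family, higher with *chordin* than in uninjected embryos (0.75 ± 0.18), and, between *bmp*-overexpressing and *chordin*-overexpressing embryos, *eef2b* (0.13 ± 0.03), *eif4a1a* (-0.15 ± 0.05) and *eef1a1l1* (-0.13 ± 0.02, log2 ± SE). Of these calls only that of *eef1a1l1* held with any single library left out, and with limma-trend only that of *eif4ea*. Of the 73 nuclear genes for ribosomal proteins of the mitochondrion, a separate set that translates only mitochondrially encoded messages, 0 were called by limma on voom weights or by limma-trend in any comparison. Their medians were 0.07 with *bmp* and 0.14 with *chordin* against uninjected embryos and -0.12 between *bmp*-overexpressing and *chordin*-overexpressing embryos (log2). At an unadjusted p under 0.05 by limma, 2 were higher with *bmp* and 6 with *chordin* against uninjected embryos. Of all rows, 6.84% and 5.26% were higher in these comparisons. Between *bmp*-overexpressing and *chordin*-overexpressing embryos 1 was higher and 6 were lower, where 7.1% of all rows were higher and 7.31% lower.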

How the data were processed

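The authors sequenced poly(A) RNA with a kit that keeps no strand, used STAR with the GRCz10 genome and deposited, per the file headers, whole read counts per gene without normalization (digit separators were removed here) and FPKM values from Cuffdiff, which pool the 3 libraries of a group. HTSeq stands in the submitters' processing notes with no role given. Columns shared between the 3 tables held identical counts. The tables also hold fold changes, p-values and calls by edgeR, DESeq and Cuffdiff, which were not used.

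Counts were tested with limma 3.58.1 in R 4.3.3 on voom weights, with TMM factors (30% of fold changes and 5% of levels trimmed), on the 2 groups compared only. To be tested, a row had to have 15 counts summed over its libraries and to reach, in 3 or more of them, the CPM that 10 counts give in a library of median depth. P-values were adjusted over all rows tested, with calls at 0.05. The fit was tested on simulated data, in which genes varied independently and changed by larger folds than the called ribosomal protein genes. That test therefore does not bear on small shifts shared by many genes. Tables were handled with pandas 2.3.3 and plots made with matplotlib 3.10.9. Pair shares were compared by exact permutation.

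The members and all lists were chosen with earlier results of these data known. Named are members called in any comparison, the 5 highest and 5 lowest fold changes per comparison, the 5 highest and lowest in FPKM, members of like-named pairs, members with well known roles and *rps19bp1*. *rpl21*, *rpl27a*, *rpl28*, *rps2* and genes of other lists were named by their values or overlap. Alternatives were other normalizations, filters, thresholds, fits and limma-trend, a replicate block and each library left out. Precision is set by 3 libraries per group. Some values of single genes are not reported here. Other experiments of the study were not analysed here.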

Additional observations from a re-analysis of the deposited data

How the results depend on the processing

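In *bmp*-overexpressing against uninjected embryos, the 11 calls became 19 without the low-count filter, 9 with total counts, 21 with the replicate block and 5 with limma-trend. They became 62 at an unadjusted p under 0.05 and 19 at an adjusted p under 0.1. By construction, they became 0 when scaled to summed ribosomal protein counts (median 0.00052, log2), an alternative chosen after seeing the data. Leaving out 1 library gave between 0 and 42. Of all rows, 2.28% were called without the filter, 4.24% with the replicate block, 3.13% with limma-trend and 3.44% with total counts. With 1 library left out, between 2.23% and 4.82% of all rows were called. In *chordin*-overexpressing against uninjected embryos the 0 calls became 6 without the filter, 1 with RLE factors, 2 without mitochondrially encoded genes, 4 with all 3 groups in the fit, 10 with the replicate block, 40 at an unadjusted p and 4 at an adjusted p under 0.1, and between 0 and 23 with a library left out; scaling to ribosomal protein counts gave a median of 0.0040. In *bmp*-overexpressing against *chordin*-overexpressing embryos they became 3 without the filter, 6 at an unadjusted p, 2 at an adjusted p under 0.1 and between 0 and 2 with a library left out. Over all rows, leaving out 1 library gave between 0.539% and 1.96% called with *chordin* against uninjected embryos. It gave between 3.95% and 4.96% with *bmp* against *chordin*. The cause of these shifts in the count of calls was not tested.

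Replicate numbers were not used as pairs in the main fit. Same-numbered deviations from group means correlated between -0.0081 and 0.056 over 18003 rows, under the 0.1 required of every pair. Such correlations cannot decide whether same-numbered libraries shared a clutch, and the labels do not say. The replicate block gave 21, 10 and 0 calls among the 82 genes in the 3 comparisons. Over all rows it gave 712, 333 and 1015 calls, against 528, 148 and 843 without it.

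Genes whose fold change lay near 0 changed sign. With *bmp* against uninjected embryos, *rps19bp1* became -0.0064 without the filter, -0.039 with total counts, -0.0017 without mitochondrially encoded genes and -0.0019 with all 3 groups in the fit, *rplp1* became -0.0046 with total counts, and with libraries left out *rps19bp1* ranged between -0.11 and 0.12, *rplp1* between -0.12 and 0.12 and *rplp2* between -0.31 and 0.12. With *chordin* against uninjected embryos, total counts gave -0.041 for *rpl19*, -0.0072 for *rpl3* and -0.044 for *rps9*, the replicate block gave -0.0036 for *rpl19* and -0.013 for *rps9*, limma-trend gave -0.00042 for *rpl19* and -0.0074 for *rps9*, and with libraries left out *rpl19* ranged between -0.047 and 0.054, *rpl3* between -0.039 and 0.098, *rps9* between -0.099 and 0.063 and *rpl12* between -0.028 and 0.015. With *bmp* against *chordin*, *rplp2* ranged between -0.34 and 0.040.

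The share of counts was 5.99% with *bmp*, 5.71% with *chordin* and 5.26% in uninjected embryos without mitochondrially encoded genes, and 7.47% with *bmp*, 7.24% with *chordin* and 6.64% in uninjected embryos without the 100 most abundant other rows. The overlap of the 5 highest genes in FPKM and in CPM was 0. Depth limits only *rps8b*, and 3 libraries per group limit the rest.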

Other observations

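Members that lie near each other were looked up after their values were seen. On chromosome 6, *rplp2* (chr6:49510146-49512923, GRCz10) lies near *rps26l* (chr6:49522051-49527414). Their log2 fold changes were -0.01 ± 0.14 and 0.34 ± 0.09 (SE) in *bmp*-overexpressing against uninjected embryos. Against *chordin*-overexpressing embryos they were -0.12 ± 0.12 and 0.06 ± 0.07. On chromosome 3, *rpl3* (chr3:29736382-29740506) lies near *rpl27* (chr3:29763123-29768384). With *bmp* against uninjected embryos this pair was alike, at 0.15 ± 0.06 and 0.11 ± 0.09. The values were 0.10 ± 0.04 and -0.09 ± 0.08 in *bmp*-overexpressing against *chordin*-overexpressing embryos. The difference between neighbours was not tested. The 82 genes lie on 25 chromosomes, with at most 7 on any chromosome.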
